A study of Mus musculus with 12 samples.

Results

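The genes described here are 10 genes of de novo lipogenesis, the making of fatty acids from carbohydrate: Srebf1, Thrsp, Acly, Acss2, Me1, Acaca, Acacb, Fasn, Elovl6 and Scd1. They were chosen by name from the known pathway, with earlier results of these data known. Each was read from a probe set that names it alone, and all 10 had exactly 1 such probe set among the 22180 genes measured. RNA of 12 mouse livers was hybridised to Affymetrix arrays, 3 in each of 4 groups that cross an injection with a diet. All mice were males of strain C57Bl/6N aged 2 months with floxed p53 alleles (p53 fl/fl, Trp53tm1Brn). They received, at equal titers through the tail vein, an adenovirus expressing Cre recombinase (Adeno-Cre) or the same kind of virus carrying green fluorescent protein instead (Adeno-GFP). After 3 days they were fasted for 24 h or fed chow freely. The groups are therefore Adeno-GFP fed, Adeno-GFP fasted, Adeno-Cre fed and Adeno-Cre fasted, and the floxed alleles and an adenovirus are common to all of them. Cre deletes the floxed segment only in cells the virus enters, and the share of such cells was not analysed here.

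Levels are the deposited log2 values, made by robust multi-array averaging (RMA), so a difference of 1 is a 2-fold difference. Array medians lay between 6.26 and 6.33, and over all genes the correlation between replicate arrays was 0.991 to 0.994. No probe set names Trp53 alone, and it was not analysed here. Ccng1, the only p53 target gene given here, fell after Adeno-Cre by 0.58 in fed mice and by 0.50 in fasted mice (limma adjusted p = 0.0135 and adjusted p = 0.00986). Another p53 target planned as a check is not reported here, and Ccng1 alone cannot show how far p53 was deleted. Of the fasting genes, Cpt1a, the gatekeeper of mitochondrial fat oxidation, rose by 0.46 with fasting after Adeno-GFP and by 0.41 after Adeno-Cre, and Pdk4, which shuts off pyruvate oxidation, rose by 1.21 and 1.14. All 10 hepatocyte markers lay above the array medians, with log2 sums of 16.16 to 16.25 on the 12 arrays. Adeno-GFP fed replicate 3 was the highest array of its group for 10 of the 10 lipogenic genes, by 0.17 on average over its group mean, and results that change without it are given with both values.

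In the fed liver, insulin and glucose switch on the lipogenic programme. SREBP-1c, the main product of Srebf1 in liver, is held in the endoplasmic reticulum by INSIG proteins until it is cleaved and enters the nucleus, where it acts beside the carbohydrate sensor ChREBP and the nuclear receptor LXR. Citrate leaving mitochondria and free acetate supply acetyl-CoA, acetyl-CoA carboxylase makes malonyl-CoA, and fatty acid synthase, an elongase and a desaturase build the fatty acid. Fasting lowers insulin and turns this programme down.

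Promoters are shown because SREBP-1c is known to act at promoters with NF-Y and Sp1. Fasn, Thrsp, Acss2 and Acly are shown as genes that fell with fasting after Adeno-GFP, and Acacb, which passed in no comparison, for its match to the SREBP element. RefSeq (GRCm38.p6) windows from 250 bases before to 50 bases after a transcript start matched 9 of the 10 genes, with 12 promoters; Scd1 was not matched. Both strands were searched for an SREBP element (TCANNCCAC), an E-box (CACGTG), an NF-Y box (CCAAT) and an Sp1 box (GGGCGG). The stretches below are 5′ to 3′ on the gene's strand, each upstream of its start, with matches in capitals; ATTGG is CCAAT and CCGCCC is GGGCGG on the other strand. Fasn and Thrsp show NF-Y boxes on both strands, Acss2 a cluster of Sp1 boxes with an NF-Y box, and Acly and Acacb the SREBP element.
Fasn: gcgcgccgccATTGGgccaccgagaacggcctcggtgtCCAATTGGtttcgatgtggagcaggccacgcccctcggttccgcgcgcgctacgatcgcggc
Thrsp: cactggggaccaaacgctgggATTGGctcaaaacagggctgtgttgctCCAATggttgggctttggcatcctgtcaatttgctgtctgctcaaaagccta
Acss2: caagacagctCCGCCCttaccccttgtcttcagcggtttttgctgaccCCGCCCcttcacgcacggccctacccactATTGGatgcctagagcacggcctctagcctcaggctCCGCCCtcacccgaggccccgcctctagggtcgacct
Acly: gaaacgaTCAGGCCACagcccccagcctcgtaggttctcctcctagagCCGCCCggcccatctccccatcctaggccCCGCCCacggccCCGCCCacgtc
Acacb: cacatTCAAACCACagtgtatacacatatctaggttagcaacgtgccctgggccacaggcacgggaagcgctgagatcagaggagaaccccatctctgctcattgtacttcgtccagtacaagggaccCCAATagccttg

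The Fasn stretch is chr11:120824548-120824647 on the minus strand and the Acacb stretch chr5:114165303-114165442 on the plus strand. Both lie before a transcript start that is inside the gene's full RefSeq span. The Thrsp stretch is chr7:97417551-97417650 (minus), the Acss2 stretch chr2:155517893-155518042 (plus) and the Acly stretch chr11:100528066-100528165 (minus), and these 3 lie before the gene's outermost start. In Fasn, 2 of the 3 NF-Y boxes overlap, at 62 and 59 bases before the start, and the other begins 90 bases before it. The SREBP element begins 158 bases before the start in Acly and 210 bases before it in Acacb. Of the 9 genes, 2 held the SREBP element, against 4.78% of all 27025 genes with a promoter in the table. The NF-Y box was in 7 of 9 (41.1% of all genes), the Sp1 box in 4 of 9 (38.2%) and the E-box in 0 of 9 (8.09%). A match is only a match of letters in this window, and none of these data show binding.

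The first comparison asks how the programme answers fasting when p53 is intact. After Adeno-GFP, 9 of the 10 lipogenic genes fell with fasting, from the transcription factor to the last enzymes of the chain. Fasn, the synthase, fell most, 3.15-fold, and Elovl6, the elongase, 2.70-fold. Srebf1, Thrsp, Acly, Me1 and Scd1 each fell between 2.02-fold and 2.17-fold. Acacb, the mitochondrial carboxylase, was the gene that did not pass. By limma at an adjusted p of 0.05, 1.87% of all genes fell in this comparison. The median log2 change of the 10 genes was -1.06, and that of all genes 0.01.

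**Figure D1:**
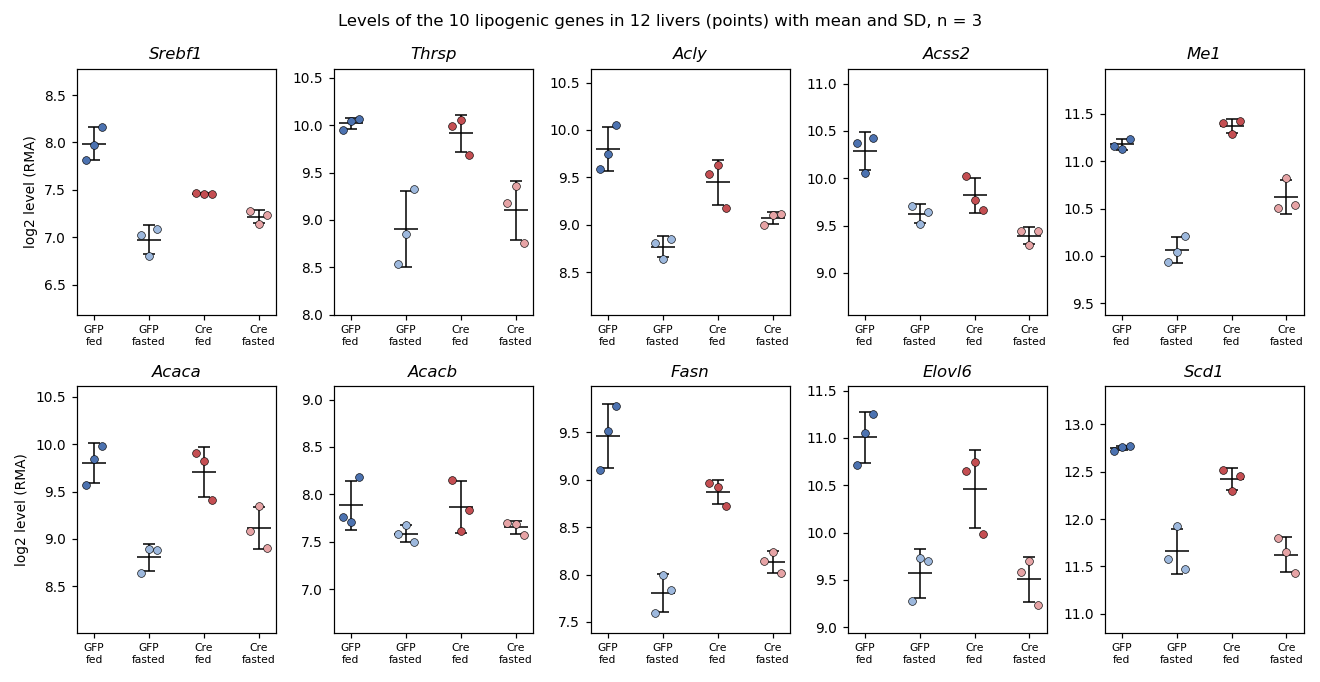
Log2 level (RMA) of each of the 10 lipogenic genes in the 4 groups; each point is a liver, the long bar the group mean and the whisker the SD (n = 3). For Fasn, the Adeno-GFP fed livers lie between 9.10 and 9.78, the Adeno-Cre fed livers between 8.73 and 8.96, and both fasted groups below them. Axes span equal widths but start at different levels, and levels of different genes are not comparable.

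Srebf1 (probe set 17263535), the transcription factor gene, had log2 levels of 7.81, 7.98 and 8.16 in Adeno-GFP fed livers and 7.03, 6.80 and 7.09 in Adeno-GFP fasted livers. Every fed liver was above every fasted liver. The fall was 1.01 on the log2 scale (SE 0.10, limma adjusted p = 0.000335). Thrsp (17493432) encodes Spot 14, a nuclear and cytosolic protein that promotes lipogenesis. Its levels were 9.95, 10.05 and 10.06 in the fed group and 8.53, 8.86 and 9.32 in the fasted group, so the fasted livers were spread widely but all lay lower. Thrsp fell by 1.11 (SE 0.19, adjusted p = 0.00904).

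Acly (17269521), ATP citrate lyase, makes acetyl-CoA from citrate. Its levels were 9.59, 9.75 and 10.06 in Adeno-GFP fed livers and 8.81, 8.64 and 8.85 in Adeno-GFP fasted livers. The groups did not overlap, and Acly fell by 1.03 (SE 0.13, limma adjusted p = 0.00189). Acss2 (17378359), the acetyl-CoA synthetase that uses acetate, read 10.37, 10.05 and 10.42 fed and 9.71, 9.52 and 9.65 fasted. All fasted livers were lower, but its fall of 0.66 (SE 0.12, adjusted p = 0.011) was the smallest that passed. Without Adeno-GFP fed replicate 1 it was a change of -0.61 that missed the threshold (adjusted p = 0.0507; 0.00224 to 0.0507 over 19 alternatives). Me1 (17529398), malic enzyme, supplies NADPH for synthesis. Its levels of 11.16, 11.13 and 11.24 in fed livers stood close together, and those of 9.94, 10.04 and 10.21 in fasted livers all lay far lower. Me1 fell by 1.12 (SE 0.10, adjusted p = 0.000149).

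Acaca (17254395), the cytosolic carboxylase that commits acetyl-CoA to synthesis, had levels of 9.57, 9.85 and 9.98 in Adeno-GFP fed livers and 8.64, 8.89 and 8.89 in Adeno-GFP fasted livers. Acaca fell by 0.99 (SE 0.15, limma adjusted p = 0.00532), with no overlap. Acacb (17440826) makes the malonyl-CoA that restrains fat oxidation at the mitochondrion. Its levels of 7.76, 7.71 and 8.18 fed and 7.58, 7.67 and 7.50 fasted did not overlap but lay close. The change was -0.30 (SE 0.14, 95% confidence interval -0.61 to 0.01, adjusted p = 0.321), and -0.15 without Adeno-GFP fed replicate 3 (adjusted p = 0.637; 0.218 to 0.637 over 19 alternatives).

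Fasn (17273348), fatty acid synthase, had levels of 9.10, 9.51 and 9.78 in Adeno-GFP fed livers and 7.60, 7.99 and 7.84 in Adeno-GFP fasted livers, with a wide gap between the groups. Fasn fell by 1.65 (SE 0.15, limma adjusted p = 0.000178). Elovl6 (17402558), which lengthens palmitate to stearate, read 10.72, 11.05 and 11.25 fed and 9.27, 9.73 and 9.70 fasted. It fell by 1.43 (SE 0.21, adjusted p = 0.00395), again without overlap. Scd1 (17365098), the desaturase that makes oleate, read 12.72, 12.76 and 12.77 fed, the smallest spread of the 10 genes in this group (SD 0.02), and 11.58, 11.93 and 11.47 fasted. It fell by 1.09 (SE 0.12, adjusted p = 0.000799). In all, fed and fasted livers did not overlap for 10 of 10 genes, against 11.1% of all genes lower without overlap. Leaving out any 1 array kept 8 or 9 of the 9 falls.

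In whole liver, fewer cells of a type and less RNA per cell cannot be told apart. In this comparison the hepatocyte marker sums were 16.198 to 16.203 fed and 16.198 to 16.255 fasted, and 1 of 10 hepatocyte markers, Hnf4a, rose by 0.60. Stellate cell marker sums were 12.81 to 12.86 fed and 12.71 to 12.82 fasted; 9 of 11 stellate markers were lower, of which Lrat (-0.76) and Col1a2 (-0.55) passed. Of 10 sinusoidal endothelial markers 8 were lower and 0 passed, with sums of 12.35 to 12.43 fed and 11.93 to 12.34 fasted. Adipocytes also make fat: their 6 measured markers summed to 10.66 to 10.90 fed and 10.71 to 11.03 fasted, and the mean levels of the defining adipocyte genes Adipoq (5.86) and Lep (5.45) over 12 arrays lay below every array median. The other 4 lay above the lowest array median: Retn (6.34), Plin1 (6.47), Cidec (7.10) and Fabp4 (10.43), of which macrophages and endothelium also express Fabp4. The part of these shifts in the lipogenic changes was not tested. The p-values measure only the spread between arrays labelled as replicates.

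The next comparison asks the same of livers given Adeno-Cre. Fasting again lowered part of the programme, and 5 of the 10 genes fell: Thrsp, Me1, Fasn, Elovl6 and Scd1. Srebf1, Acly, Acss2, Acaca and Acacb had negative changes that did not pass. By limma, 1.17% of all genes fell here. The median change of the 10 genes was -0.67 against -0.00 for all genes. Whether this response differs from that after Adeno-GFP is a separate test, given with the interaction.

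**Figure D2:**
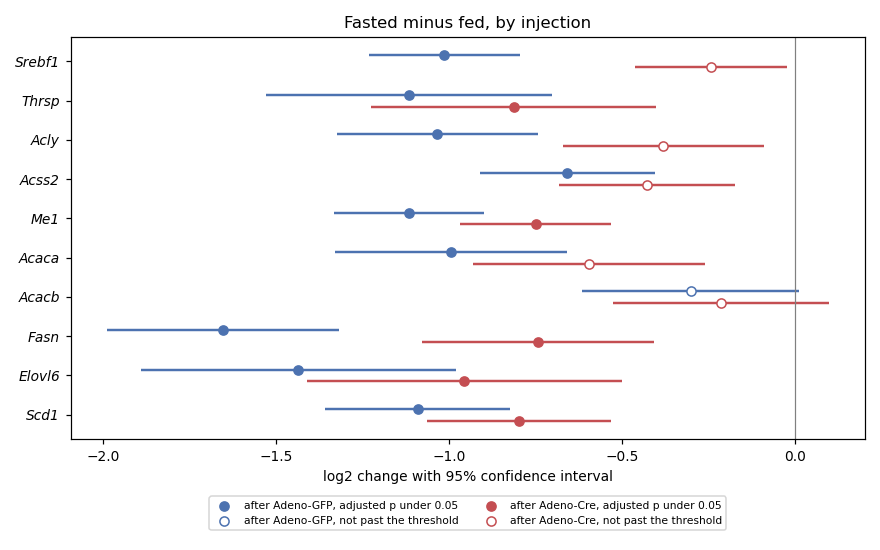
Log2 change from fed to fasted for each of the 10 genes after Adeno-GFP and after Adeno-Cre; points are limma estimates, bars 95% confidence intervals, and filled points passed an adjusted p of 0.05. All points lie left of 0, and each gene's Adeno-Cre point is nearer to 0 than its Adeno-GFP point, as for Fasn (-0.74 against -1.65).

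Srebf1 levels were 7.46, 7.46 and 7.45 in Adeno-Cre fed livers and 7.28, 7.14 and 7.24 in Adeno-Cre fasted livers. The groups did not overlap, and the fed livers were nearly equal. The change was -0.24 (SE 0.10, 95% confidence interval -0.46 to -0.02, limma adjusted p = 0.258). Thrsp levels of 10.00, 10.06 and 9.69 fed and 9.18, 9.36 and 8.76 fasted also stood apart, with a fall of 0.81 (SE 0.19, adjusted p = 0.0424). This call is narrow: leaving out any of 10 arrays, all but Adeno-GFP fasted replicates 1 and 3, ended it (changes of -0.94 to -0.64 and adjusted p = 0.0219 to 0.138 over 19 alternatives).

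Acly levels were 9.53, 9.63 and 9.18 in Adeno-Cre fed livers and 8.99, 9.10 and 9.11 in Adeno-Cre fasted livers. The lowest fed liver, replicate 3, lay just above the fasted ones, and the change was -0.38 (SE 0.13, limma adjusted p = 0.172). Acss2 levels were 10.02, 9.77 and 9.67 fed and 9.44, 9.29 and 9.45 fasted, a change of -0.43 (SE 0.12, adjusted p = 0.0794) with no overlap. Me1 levels were 11.40, 11.29 and 11.42 fed and 10.51, 10.83 and 10.53 fasted. Me1 fell by 0.75 (SE 0.10, adjusted p = 0.00333), and did so without each array in turn.

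Acaca levels were 9.90, 9.82 and 9.41 in Adeno-Cre fed livers and 9.08, 9.35 and 8.91 in Adeno-Cre fasted livers. They came close, at 9.41 and 9.35, without overlapping, and the change of -0.60 (SE 0.15, limma adjusted p = 0.0658) did not pass. Without Adeno-Cre fed replicate 3 it passed, and adjusted p-values ran from 0.033 to 0.214 over 19 alternatives. Acacb levels of 8.16, 7.61 and 7.83 fed and 7.70, 7.68 and 7.57 fasted overlapped, with a change of -0.21 (SE 0.14, adjusted p = 0.52). The other 9 of the 10 genes were lower in fasted livers without overlap, against 9.81% of all genes.

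Fasn levels were 8.96, 8.93 and 8.73 in Adeno-Cre fed livers and 8.14, 8.24 and 8.01 in Adeno-Cre fasted livers, clearly apart. Fasn fell by 0.74 (SE 0.15, limma adjusted p = 0.0262), a 1.67-fold fall. Elovl6 levels were 10.65, 10.75 and 9.98 fed and 9.58, 9.70 and 9.24 fasted, with fed replicate 3 far below its group. Elovl6 fell by 0.95 (SE 0.21, adjusted p = 0.032). Scd1 levels of 12.51, 12.30 and 12.46 fed and 11.80, 11.65 and 11.43 fasted did not overlap, and Scd1 fell by 0.80 (SE 0.12, adjusted p = 0.00604), also without each array in turn. Fasn and Elovl6 lost their calls when Adeno-Cre fed replicate 1 or 2, or any Adeno-Cre fasted replicate (1, 2 or 3), was left out, where the genes that fell numbered 2 of 10; their adjusted p-values ran from 0.0114 to 0.0971 and from 0.0165 to 0.121 over 19 alternatives.

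In these mice 10 of 11 Kupffer cell and macrophage markers were lower in fasted livers with 0 past the threshold (sums of 11.75 to 12.33 fed and 11.35 to 11.94 fasted). Of the stellate markers 8 of 11 were lower and Lrat (-0.52), Col1a2 (-0.62) and Col3a1 (-0.76) fell. Hepatocyte marker sums were 16.156 to 16.176 fed and 16.159 to 16.186 fasted with 0 of 10 past the threshold. Of 6 adipocyte markers, Cidec, a lipid droplet protein, rose by 1.06. After Adeno-GFP its change with fasting was similar, 1.02, but did not pass. The part of these shifts in the lipogenic changes was not tested.

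Averaged over both injections, 9 of 10 genes fell, where 4.32% of all genes did so by limma. The largest falls were of Fasn (-1.20, SE 0.11, adjusted p = 7.77e-05) and Elovl6 (-1.19, SE 0.15, adjusted p = 0.000549), and Me1, with -0.93 (SE 0.07), had the smallest adjusted p (1.84e-05). Acacb again did not pass (-0.26, SE 0.10, adjusted p = 0.156). All 9 falls held without each array in turn. The mean of each fed group was above the mean of each fasted group for 10 of 10 genes and for 17.9% of all genes. For 8 of 10, all but Acss2 and Acacb, every fed liver was above every fasted liver, as for 1.74% of all genes.

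The comparison of Adeno-Cre with Adeno-GFP in fed mice asks how the programme differs between the viruses when it is switched on. No group lacked the floxed alleles, so loss of p53, Cre itself and the absence of GFP cannot be told apart in any Adeno-Cre comparison. Srebf1 fell 1.44-fold, and it was the 1 gene of the 10 that passed. Levels of 8 others were lower after Adeno-Cre as well, most of all Fasn (-0.59), Elovl6 (-0.54) and Acss2 (-0.46), but none of these passed, and Me1 was higher by 0.19 without passing. By limma 0.415% of all genes fell in this comparison. The Adeno-GFP fed livers serve this comparison and the fasting comparison alike, so their changes are not independent. The median change of the 10 genes was -0.34 against -0.02 for all genes.

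**Figure D3:**
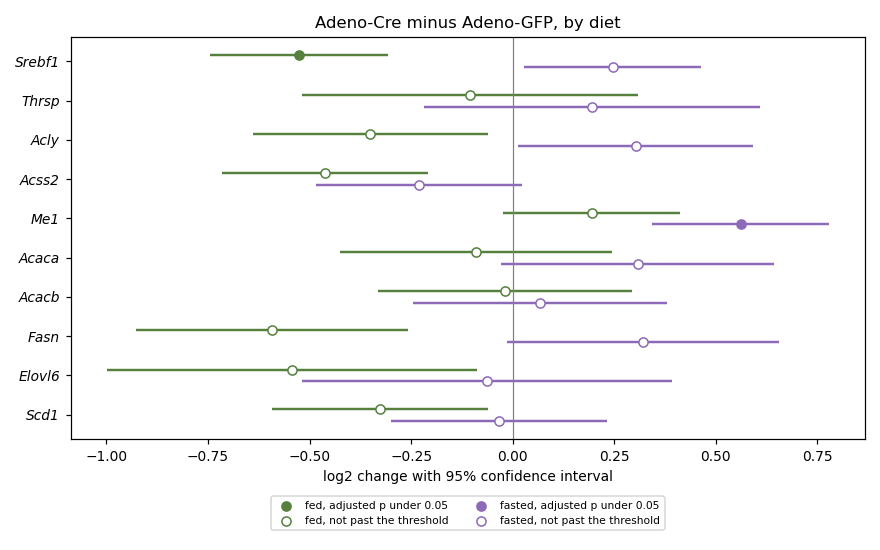
Log2 change from Adeno-GFP to Adeno-Cre for each of the 10 genes in fed and in fasted mice; points are limma estimates, bars 95% confidence intervals, and filled points passed an adjusted p of 0.05. Srebf1 in fed mice (-0.53) and Me1 in fasted mice (0.56) are the 2 filled points. For Srebf1, Acly and Fasn the fed point lies below 0 and the fasted point above it.

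The Srebf1 levels of 7.46, 7.46 and 7.45 after Adeno-Cre lay below all 3 fed livers after Adeno-GFP, the lowest of which read 7.81. Srebf1 fell by 0.53 (SE 0.10, 95% confidence interval -0.74 to -0.31, limma adjusted p = 0.0273). The direction was the same without each array in turn, but the call ended without Adeno-GFP fed replicate 2 (-0.53, adjusted p = 0.0569) or 3 (-0.44, adjusted p = 0.118), and without Adeno-Cre fed replicate 1 (adjusted p = 0.0736), 2 (0.0752) or 3 (0.0887). Over 19 alternatives its adjusted p ran from 0.0124 to 0.118.

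Of the enzymes, Fasn levels of 8.73 to 8.96 after Adeno-Cre lay under the Adeno-GFP range of 9.10 to 9.78, with a change of -0.59 (SE 0.15, 95% confidence interval -0.93 to -0.26, limma adjusted p = 0.0918). Without Adeno-GFP fed replicate 3 the change was -0.44. Acss2 ranges of 9.67 to 10.02 and 10.05 to 10.42 nearly touched, with a change of -0.46 (SE 0.12, adjusted p = 0.0809). Acss2 passed without Adeno-GFP fed replicate 2, and its adjusted p ran from 0.0312 to 0.274 over 19 alternatives. Scd1 was lower without overlap, at 12.30 to 12.51 against 12.72 to 12.77 (-0.33, SE 0.12, adjusted p = 0.273). In Elovl6 (adjusted p = 0.287) and Acly (-0.35, adjusted p = 0.279) the ranges overlapped, with Adeno-Cre fed replicate 3 the lowest array for both.

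Me1 ran the other way, with 11.29 to 11.42 after Adeno-Cre and 11.13 to 11.24 after Adeno-GFP, a change of 0.19 (SE 0.10, limma adjusted p = 0.466) without overlap. Thrsp (-0.11), Acaca (-0.09) and Acacb (-0.02) overlapped, with confidence intervals of -0.52 to 0.31, -0.43 to 0.24 and -0.33 to 0.29. Counted together, 4 genes were lower without overlap (11.5% of all genes) and 1 was higher without overlap (8.4%). At an unadjusted p under 0.05, 6 of the 10 passed, and 2742 of the 22180 genes did.

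Other cells differed between these groups too. Stellate marker sums were 12.49 to 12.69 after Adeno-Cre and 12.81 to 12.86 after Adeno-GFP, with 10 of 11 lower and Rgs5, a pericyte and stellate marker, falling by 0.41. All 10 endothelial markers were lower and 0 passed, with sums of 11.78 to 12.30 against 12.35 to 12.43. T and NK cell marker sums were 9.61 to 9.87 against 9.45 to 9.54, with 9 of 10 higher and Gzma, a granzyme, rising by 0.71. The hepatocyte sums were 16.156 to 16.176 against 16.198 to 16.203, with 8 of 10 lower and 0 past the threshold. The part of these shifts in the lipogenic changes was not tested.

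In fasted mice Me1 rose 1.47-fold after Adeno-Cre, and none of the other lipogenic genes passed. By limma 2.26% of all genes rose here. Of the 10 genes 7 had positive changes, with a median of 0.22 against -0.03 for all genes. Me1 levels were 10.51, 10.83 and 10.53 after Adeno-Cre and 9.94, 10.04 and 10.21 after Adeno-GFP, without overlap. Me1 rose by 0.56 (SE 0.10, 95% confidence interval 0.34 to 0.78, limma adjusted p = 0.00847), and it passed without each array in turn. A fit on the fasted arrays alone left the change without a call (adjusted p = 0.068; 0.00127 to 0.068 over 19 alternatives).

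Srebf1 was higher in all 3 Adeno-Cre fasted livers (7.14 to 7.28) than in the Adeno-GFP fasted livers (6.80 to 7.09), with a change of 0.25 (SE 0.10, limma adjusted p = 0.243). Fasn was also higher without overlap, at 8.01 to 8.24 against 7.60 to 7.99 (0.32, SE 0.15, adjusted p = 0.321). So were Acly (0.30, adjusted p = 0.277) and Acaca (0.31, adjusted p = 0.342). With Me1 these made 5 genes higher without overlap, against 9.96% of all genes, and Acss2 was lower without overlap (-0.23, adjusted p = 0.343; 10.9% of all genes). Thrsp (0.20), Acacb (0.07), Elovl6 (-0.06) and Scd1 (-0.03) overlapped. For Scd1 the confidence interval was -0.30 to 0.23, and for Elovl6 -0.52 to 0.39. Beside these values, 10 of 11 Kupffer markers were lower after Adeno-Cre and Lyz2, lysozyme, fell by 0.71 (sums of 11.35 to 11.94 against 11.95 to 12.50). All 11 stellate markers were lower with 0 past the threshold, and Gzma rose by 0.65. Hepatocyte marker sums were 16.159 to 16.186 after Adeno-Cre and 16.198 to 16.255 after Adeno-GFP, with 9 of 10 markers lower, 4 of them without overlap, and 0 past the threshold. The part of these shifts in the lipogenic changes was not tested.

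Averaged over the diets, Me1 rose by 0.38 (SE 0.07, limma adjusted p = 0.00779) and Acss2 fell by 0.35 (SE 0.08, adjusted p = 0.0285), where 3.55% of all genes rose and 2.03% fell. Me1 held without each array in turn. The call of Acss2 ended without any of Adeno-GFP fed replicates 1 and 3, Adeno-GFP fasted replicates 1 and 3, Adeno-Cre fed replicates 2 and 3 and Adeno-Cre fasted replicate 2 (changes of -0.34 to -0.31; adjusted p = 0.0087 to 0.0763 over 18 alternatives). Both enzymes feed the pathway, Me1 with NADPH and Acss2 with acetyl-CoA, and they moved in opposite directions. Srebf1 averaged to -0.14 (adjusted p = 0.307) and Fasn to -0.14 (adjusted p = 0.538).

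Whether fasting acted differently after Adeno-Cre was tested by the interaction, the fasting change after Adeno-Cre minus that after Adeno-GFP. None of the 10 genes passed. Of all 22180 genes 1 passed by limma (0.00451%). All 10 interaction values were positive, meaning a smaller fall after Adeno-Cre, with a median of 0.38 against -0.00 for all genes. These 10 values are read from the same 12 livers and are not independent of each other.

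Fasn had the largest value, 0.91 (SE 0.22, 95% confidence interval 0.44 to 1.39, unadjusted p = 0.00122, limma adjusted p = 0.538). Srebf1 had 0.77 (SE 0.14, 95% confidence interval 0.46 to 1.08, unadjusted p = 0.000146, limma adjusted p = 0.294). Acly had 0.65 (SE 0.19, limma adjusted p = 0.546) and Me1 0.37 (SE 0.14, adjusted p = 0.628). These 4 had an unadjusted p under 0.05, as did 1676 of all genes. Without Adeno-GFP fed replicate 3, the Fasn value was 0.76 and the Srebf1 value 0.68. The smallest value was that of Acacb (0.09, SE 0.20), which turned to -0.061 when Adeno-GFP fed replicate 3 was left out and to -0.040 when Adeno-Cre fed replicate 2 was.

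The order of the 4 group means took 3 forms. In Srebf1, Thrsp, Acly, Acaca, Acacb and Fasn it ran from Adeno-GFP fed through Adeno-Cre fed and Adeno-Cre fasted down to Adeno-GFP fasted. In Srebf1 and Fasn no neighbours in this order overlapped, so the Adeno-Cre groups sat between the Adeno-GFP groups. The interaction passed for neither gene (limma adjusted p = 0.294 and adjusted p = 0.538). In Thrsp the fed groups overlapped each other and so did the fasted groups, in Acly and Acaca the fed groups overlapped, and in Acacb all neighbours did. In Acss2, Elovl6 and Scd1 Adeno-Cre fasted was lowest; it overlapped Adeno-GFP fasted in Elovl6 and Scd1 but not in Acss2. Me1 alone had Adeno-Cre fed highest, and none of its neighbours overlapped. The share of all genes with each order, or with no overlap between neighbours, was not counted. The SD within groups, pooled over the 4 groups, ran from 0.12 in Srebf1 and Me1 to 0.30 in Elovl6, beside a median of 0.13 over all genes, so Elovl6 needs larger changes to pass than Srebf1.

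The rest of the pathway was read from a list of 49 other genes, of which 43 were measured. Averaged over injections 4 of 43 rose and 10 fell with fasting, where 4.02% of all genes rose and 4.32% fell. These 14 were 5 of 5 genes of carbon and NADPH supply, 2 of 6 of SREBP processing, 2 of 7 other transcription factors, 2 of 5 of carboxylase control, 1 of 6 of elongation and desaturation and 2 of 9 of acyl-CoA and triglyceride synthesis. With fasting after Adeno-GFP, 2 of 43 rose and 9 fell, where 1.2% of all genes rose and 1.87% fell, and the list median was -0.01. After Adeno-Cre, 2 rose and 6 fell, where 1.5% of all genes rose and 1.17% fell, with a median of -0.06. Without any of Adeno-GFP fed replicates 1, 2 and 3 or Adeno-GFP fasted replicates 1 and 3, the genes past the threshold after Adeno-GFP numbered 6 or 7, and without Adeno-Cre fed replicates 1 or 3 or Adeno-Cre fasted replicate 1 those after Adeno-Cre numbered 5.

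**Figure D4:**
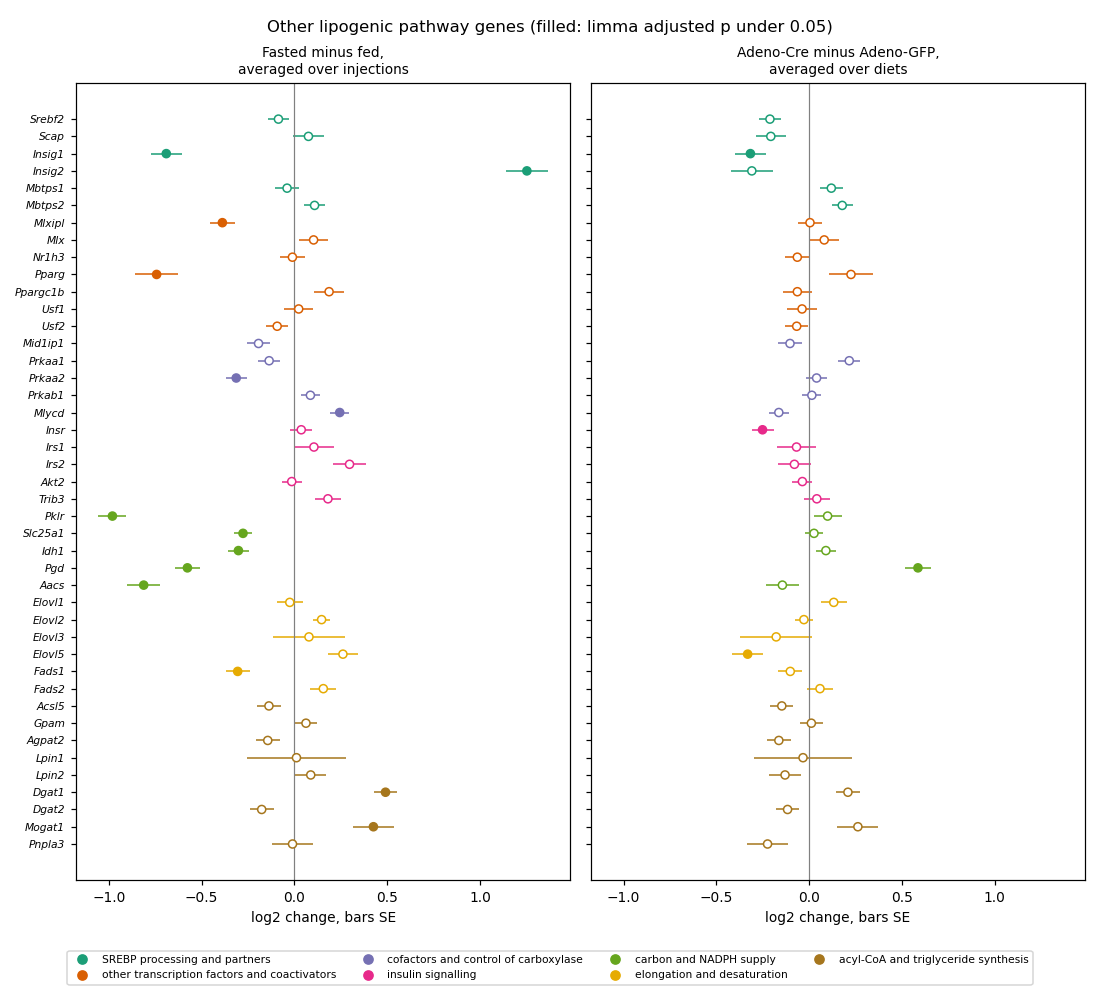
Log2 change of the 43 other pathway genes, coloured by role, from fed to fasted averaged over injections and from Adeno-GFP to Adeno-Cre averaged over diets; points are limma estimates, bars SE, and filled points passed an adjusted p of 0.05. With fasting 14 genes are filled, Insig2 (1.25) far to the right and Pklr (-0.98) far to the left; with Adeno-Cre 4 are filled, Pgd (0.59) the farthest.

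All 5 measured genes of carbon and NADPH supply fell with fasting after Adeno-GFP. Pklr, the liver pyruvate kinase, had levels of 10.07, 10.28 and 10.37 in Adeno-GFP fed livers and 8.95, 9.16 and 9.05 in Adeno-GFP fasted livers, with no overlap. Pklr fell by 1.19 (SE 0.11, limma adjusted p = 0.00015), and after Adeno-Cre by 0.78 (adjusted p = 0.00389). Aacs, which activates acetoacetate for lipid synthesis, fell by 1.02 and 0.60, and Slc25a1, the mitochondrial citrate carrier, by 0.41 after Adeno-GFP. The other genes were Pgd (-0.55), of the pentose phosphate pathway, and Idh1 (-0.37), the cytosolic isocitrate dehydrogenase; Idh1 was named after its values were seen.

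The INSIG genes went opposite ways. Insig2, whose liver transcript is known to rise when insulin is low, read 8.85, 8.71 and 8.85 in Adeno-GFP fed livers and 10.50, 10.35 and 9.91 in Adeno-GFP fasted livers. It rose by 1.45 (SE 0.16, limma adjusted p = 0.000763) and after Adeno-Cre by 1.05 (adjusted p = 0.00595). Insig1, itself an SREBP target, fell by 0.66 and 0.72. Dgat1, of triglyceride synthesis, was the other gene that rose in both comparisons (0.44 and 0.55) and was named after its values were seen. Of 7 other transcription factors and coactivators 2 fell after Adeno-GFP. Mlxipl, which encodes ChREBP, fell by 0.43 (SE 0.09, limma adjusted p = 0.0284), with a change of -0.35 after Adeno-Cre that did not pass (adjusted p = 0.0776). Pparg, a nuclear receptor of fat storage, fell by 0.69 (adjusted p = 0.0464) and after Adeno-Cre by 0.80 (adjusted p = 0.0263). Srebf2, the sterol-regulating relative of Srebf1, had changes of -0.05 and -0.12 (adjusted p = 0.842 and adjusted p = 0.513), and Nr1h3, which encodes LXR alpha, of 0.07 and -0.09 (adjusted p = 0.787 and adjusted p = 0.701); these 4 were also named after their values were seen.

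After Adeno-Cre, Pgd rose in both diets. Its fed levels were 8.70, 8.79 and 8.59 after Adeno-Cre and 8.05, 8.03 and 8.16 after Adeno-GFP, and its fasted levels 8.01, 8.19 and 8.06 against 7.67, 7.33 and 7.59. The groups stood apart in both diets. Pgd rose by 0.62 in fed mice (SE 0.10, limma adjusted p = 0.0148) and by 0.56 in fasted mice (SE 0.10, adjusted p = 0.00803), and its interaction was -0.06 (SE 0.14, 95% confidence interval -0.36 to 0.24). It was the 1 gene of 43 past the threshold in fed mice, where 1.08% of all genes rose, and the count was 0 without Adeno-GFP fed replicates 1 or 3.

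In fasted mice Prkaa1, a catalytic subunit of the kinase AMPK that inactivates acetyl-CoA carboxylase, rose as well (0.36, SE 0.08, limma adjusted p = 0.0389). Prkaa2, the other catalytic subunit, had fasted means of 10.37 after Adeno-Cre and 10.40 after Adeno-GFP, and was named after its values were seen. Activity of the kinase was not measured. Prkaa1 and Pgd were the 2 of 43 that rose, and 0 fell, where 2.26% of all genes rose and 0.482% fell. The count of 2 dropped to 1 without any of Adeno-GFP fed replicates 1, 2 and 3, Adeno-GFP fasted replicates 1 and 2, Adeno-Cre fed replicates 1 and 2 and Adeno-Cre fasted replicate 2. Without Adeno-Cre fed replicate 3 or Adeno-Cre fasted replicate 3, and with quantile normalization repeated, it stayed at 2 but as 1 rise and 1 fall. Without Adeno-GFP fasted replicate 3, 2 rose and 1 fell. Averaged over diets, Insig1 (-0.32, adjusted p = 0.0461), Insr (-0.25, adjusted p = 0.0276), the insulin receptor, and Elovl5 (-0.33, adjusted p = 0.0352), an elongase of polyunsaturated fatty acids, fell beside the rise of Pgd. These made 4 of 43, 1 higher and 3 lower, where 3.55% of all genes rose and 2.03% fell. This count of 4 was 1 or 2 without any of Adeno-GFP fed replicates 1, 2 and 3, Adeno-GFP fasted replicates 1 and 2, Adeno-Cre fed replicates 2 and 3 and Adeno-Cre fasted replicate 2. For the interaction 0 of 43 passed by limma, and 6 had an unadjusted p under 0.05, where 1 and 1676 of all 22180 genes did.

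The genes whose pattern over the 12 livers was most like that of Srebf1 and of Fasn were found by the root mean square difference between log2 levels, each gene first set to a mean of 0. Outside the 10 genes, those closest to Srebf1 were Carmil1 (0.125), Cyb5r3 (0.152), a cytochrome b5 reductase, Tmem14a (0.153), Rdh11 (0.154), a retinol dehydrogenase, and Lss (0.170), lanosterol synthase of the cholesterol pathway. Among the 10 genes, Acly (0.136) ranked 2 of 22179 other genes in closeness to Srebf1 and Acss2 (0.217) ranked 28, while Fasn (0.335) ranked 1574 and Elovl6 (0.394) ranked 7570. Acaca ranked 125, Scd1 246 and Acacb 781. Acacb (0.313), which passed in no comparison, thus lay closer to Srebf1 than Thrsp (0.323) and Me1 (0.346). Closeness by this measure therefore need not mean a shared change. This measure sets size as well as shape, so a gene with larger changes, as Fasn, can be far from Srebf1. Size is not all of it: Thrsp ranked 1096 and Me1 2198, with fasting changes after Adeno-GFP (-1.11 and -1.12) near that of Srebf1 (-1.01).

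**Figure D5:**
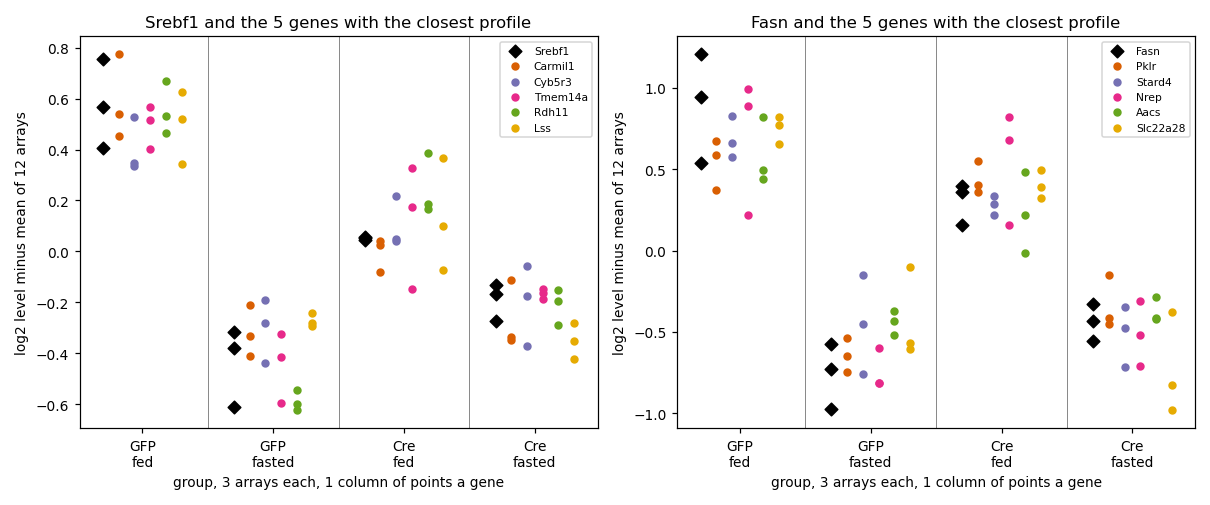
Log2 level minus the mean of 12 arrays for Srebf1 (left) and Fasn (right), black diamonds, and for the 5 genes outside the 10 with the closest pattern, coloured circles; each point is a liver and each column of 3 points a gene in a group. All 6 genes of each panel are highest in Adeno-GFP fed livers by group mean, and both fasted groups lie below 0.

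Closest to Fasn outside the 10 genes were Pklr (0.228), Stard4 (0.256), a sterol carrier, Nrep (0.273), Aacs (0.279) and Slc22a28 (0.283), a transporter. Pklr and Aacs are also on the list of other pathway genes. Among the 10 genes, Elovl6 (0.196) ranked 1 of 22179, Scd1 (0.268) ranked 4 and Acaca (0.286) ranked 9, whereas Acacb (0.546) ranked 554. These ranks describe 12 livers in 4 groups and say nothing beyond them.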

How the data were processed

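Liver RNA of 12 mice was measured on Affymetrix arrays, 3 per group. The deposited values are log2 levels of probe sets. Per the submitters' processing notes they come from RMA; its software, version and build were not given in the sources used here. Since RMA gives all arrays the same distribution, a shift of all genes would be removed, and RMA compresses changes of dim probe sets. No signal over background was given, so no detection call was made, and the number of arrays limits the precision.

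Of 41345 probe sets, a platform annotation named 1 gene for 23521 and several for 1814, and did not list 16010. Of the named ones 23328 had a gene identifier in a RefSeq table, and 0 symbols were updated. The probe set with the highest mean represented a gene, which left 22180 genes. Limma 3.58.1 (R 4.3.3) fitted a mean per group to all 12 arrays, with eBayes and Benjamini-Hochberg adjustment over 22180 genes within each of the comparisons, at a threshold of 0.05, and was tested on simulated data. Marker levels were summed after undoing the log2. Python 3.11.15 read RefSeq promoters (GRCm38.p6).

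The 10 genes, the lists, the tests and the alternatives were chosen with earlier results of these data known. Named were the 10 genes, up to 4 other pathway genes per comparison with the smallest p past the threshold, the 5 closest patterns to Srebf1 and to Fasn, and marker genes past the threshold. Alternatives were to drop dim probe sets, to repeat quantile normalization, to block on the replicate number, to restrict the fit to the groups of a comparison, to use a trended and robust prior, to average a gene's probe sets, to test every probe set, and to omit each array in turn.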

Additional observations from a re-analysis of the deposited data

Results flagged for a closer look

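Srebf1 was flagged because its levels moved in opposite ways in the 2 diets. Every Adeno-Cre fed liver was below every Adeno-GFP fed liver (-0.53), and every Adeno-Cre fasted liver was above every Adeno-GFP fasted liver (0.25). The fed change passed (limma adjusted p = 0.0273) but lost its call in several alternatives. The fasted change did not pass (limma adjusted p = 0.243). The difference between these changes was 0.77. It was tested as the interaction and did not pass (limma adjusted p = 0.294; 0.137 to 0.559 over 18 alternatives).

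Fasn showed the same opposition, with every liver lower after Adeno-Cre in fed mice (-0.59) and every liver higher in fasted mice (0.32). In fasted mice the ranges nearly touched, at 8.01 after Adeno-Cre and 7.99 after Adeno-GFP, beside a pooled SD of 0.21. The share of all genes with such an opposition, as in Fasn and Srebf1, was not counted. The difference was 0.91, and the interaction did not pass (limma adjusted p = 0.538; 0.27 to 0.778 over 18 alternatives).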

How the results depend on the processing

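The 70 changes of the 10 genes were recomputed under up to 19 alternatives, which gave 1300 values. Of these, 1228 kept direction and side of the threshold, 43 lost and 11 gained a call, and 18 changed sign, of which 0 had passed to begin with; all 18 came from leaving out 1 array. Leaving out each array in turn, the genes of the 10 past the threshold numbered 8 to 9 for fasting after Adeno-GFP, 2 to 5 after Adeno-Cre and 9 to 9 averaged, 0 to 1 for Adeno-Cre in fed mice, 1 to 1 in fasted mice and 1 to 2 averaged, and 0 to 0 for the interaction. The 43 other pathway genes gave 6 to 11, 5 to 8 and 13 to 14, then 0 to 1, 1 to 3 and 1 to 5, and 0 to 0.

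Fitting only the groups compared left 3 of the 5 fasting calls after Adeno-Cre, 0 for Adeno-Cre in fed mice and 0 in fasted mice; of the pathway genes it left 7, 4 and 0 for fasting after Adeno-GFP, after Adeno-Cre and for Adeno-Cre in fasted mice. Testing all probe sets left 2, 0 and, averaged over diets, 1 of the 10 genes, and 6, 5, 1 and 1 of the pathway genes. Leaving out dim probe sets gave 3 calls for Adeno-Cre in fed mice and the trended prior 2; averaged over diets they gave 9 and 8 pathway genes. The cause was not tested.

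Changes that reversed in sign without an array had these ranges. For Adeno-Cre in fed mice, Thrsp ran from -0.18 to 0.0059, Acaca from -0.20 to 0.060 and Acacb from -0.17 to 0.13. In fasted mice, Elovl6 ran from -0.21 to 0.070 and Scd1 from -0.13 to 0.10. Averaged over diets, Thrsp ran from -0.048 to 0.15, Acly from -0.076 to 0.043 and Acacb from -0.049 to 0.099, and the interaction of Acacb from -0.061 to 0.23.

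Same-numbered arrays of different groups deviated together with correlations of -0.09 to 0.147 (mean 0.026, over 0.1 in 3 of 18 pairs). Those of different numbers ran from -0.179 to 0.129 (mean -0.013, over 0.1 in 2 of 36 pairs). Of the 12 arrays 6 correlated best with their own number. These values do not settle whether the numbers pair the samples. The main fit used no pairing, and the replicate number was tried as a block. With the replicate block, 2 of 70 values changed side: Thrsp lost and Acss2 gained a call for fasting after Adeno-Cre, which left the count at 5 of 10, and 0 reversed. Precision is limited by 3 arrays a group and by an unknown signal over background.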
